A study of Mus musculus with 14 samples.

Results

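Bile acid genes were examined in mouse liver tumours with and without overexpression of Aoah, the gene of acyloxyacyl hydrolase, an enzyme that removes fatty acyl chains from bacterial lipopolysaccharide. A list of 32 genes of bile acid synthesis, conjugation, transport and feedback was looked up by symbol in a table of 29923 genes, and all 32 were found. The samples were 14 bulk hepatocellular carcinomas of C57BL/6 mice, raised by tail-vein injection of transposon plasmids with SB100, a Sleeping Beauty transposase. Every tumour was driven by MYC. In Luc tumours the MYC plasmid carried luciferase, and in LucOS tumours it carried luciferase with the antigens OVA, SIN and SIY. Each model received an Aoah plasmid or the matching empty vector, which gave 4 Luc Aoah, 4 Luc vector, 3 LucOS Aoah and 3 LucOS vector tumours. A plasmid for N90-CTNNB1, a truncated beta-catenin, is also listed without a statement of which tumours received it, and the ages of the mice and the promoter of the Aoah plasmid are not given. A protocol for anti-PD1 is described, but no tumour is labelled as treated. The labels do not say that the tumours came from separate animals. The p-values set group differences against the spread between these samples, each taken as independent. They could be too small if tumours shared an animal.

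Bile acids are made from cholesterol in hepatocytes. In the classical route Cyp7a1 catalyses the first and rate-limiting step and Cyp8b1 directs the product to cholic acid, whereas the alternative route begins with Cyp27a1 and continues through Cyp7b1. The side chain is shortened in peroxisomes and joined to taurine or glycine, and the conjugates are pumped into bile by Abcb11 and returned from portal blood by Slc10a1 and the Slco carriers. Bile acids bind the nuclear receptor Fxr (gene Nr1h4), which induces the repressor Shp (Nr0b2) in liver and the hormone Fgf15 in ileum, and Fgf15 acts on hepatocytes through Fgfr4 and its partner Klb. Both arms lower Cyp7a1 transcription in normal mice.

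Promoter sequence was found in the RefSeq tables for 24 of the 32 genes, on build GRCm38.p6, and 12 short motifs of liver and nuclear receptor factors were searched in the 250 bases before each start, on both strands. The 4 windows of this length printed here are those of a synthesis gene and an uptake carrier that rose with Aoah in Luc tumours (Cyp8b1 and Slco1b2), the repressor gene that fell (Nr0b2) and the main bile salt export pump, which did not pass the test (Abcb11). Capitals mark every match to any of the 12 motifs, and each sequence is written 5′ to 3′ on the strand of its gene.
Cyp8b1, chr9:121916306-121916555, minus strand: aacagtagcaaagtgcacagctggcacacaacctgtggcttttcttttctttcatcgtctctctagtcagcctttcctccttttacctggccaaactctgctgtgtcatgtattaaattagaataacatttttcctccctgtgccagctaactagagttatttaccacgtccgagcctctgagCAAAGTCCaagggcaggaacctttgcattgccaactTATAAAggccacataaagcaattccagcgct
Slco1b2, chr6:141629268-141629517, plus strand: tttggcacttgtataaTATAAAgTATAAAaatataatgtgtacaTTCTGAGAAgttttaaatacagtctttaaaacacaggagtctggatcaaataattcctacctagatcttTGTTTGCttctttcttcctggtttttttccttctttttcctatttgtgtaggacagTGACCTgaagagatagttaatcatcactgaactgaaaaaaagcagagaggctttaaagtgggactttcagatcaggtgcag
Nr0b2, chr4:133553126-133553375, plus strand: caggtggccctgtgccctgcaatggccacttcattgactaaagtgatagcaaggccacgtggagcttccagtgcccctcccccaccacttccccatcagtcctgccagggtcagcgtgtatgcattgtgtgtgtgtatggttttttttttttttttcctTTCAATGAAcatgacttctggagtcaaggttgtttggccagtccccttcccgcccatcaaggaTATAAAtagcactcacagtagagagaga
Abcb11, chr2:69342617-69342866, minus strand: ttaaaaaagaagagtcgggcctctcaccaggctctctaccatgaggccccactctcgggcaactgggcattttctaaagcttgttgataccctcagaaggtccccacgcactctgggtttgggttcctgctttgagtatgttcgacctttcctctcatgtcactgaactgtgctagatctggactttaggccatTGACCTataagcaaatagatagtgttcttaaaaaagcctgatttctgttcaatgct
The sterol exporter subunits Abcg5 and Abcg8 are transcribed in opposite directions from starts that enclose 109 bases, shown on the strand of Abcg8.
Abcg5-Abcg8, chr17:84683012-84683120, plus strand: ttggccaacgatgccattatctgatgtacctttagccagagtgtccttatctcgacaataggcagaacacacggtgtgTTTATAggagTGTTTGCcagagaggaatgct

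In the Cyp8b1 window the HNF4 motif CAAAGTCC lay 67 to 60 bases before the start and the TATA box TATAAA at 31 to 26 bases. CAAAGTCC was found in 1.2% of all 32851 RefSeq windows of this length, and among the listed genes also in Slc51a. TATAAA was found in 12.4% of all windows and in 7 of the 24 listed genes, among them Nr0b2, where it lay 28 to 23 bases before the start. The half-site AGGTCA, read as TGACCT on the other strand, lay 56 to 51 bases before the start of Abcb11 and 81 to 76 bases before that of Slco1b2. It was found in 11 of the 24 genes and in 14.0% of all windows. The forkhead motif TGTTTGC was found in 4 of the 24 genes and 4.30% of all windows, including 1 match that Abcg5 and Abcg8 share. The other forkhead form, TGTTTAC, was found in Abcb1a and in 3.17% of all windows. The STAT motif TTCNNNGAA was found in Hsd3b7, Slc10a1, Slco1b2, Slc51b and Nr0b2, and in 7.02% of all windows. The 6 remaining motifs had no exact match in the 24 genes. They were AGGTCANTGACCT (0.00609% of all windows), AGGTCANAGGTCA (0.0335%), TCAAGGTC (0.935%), CAAGGTCA (1.33%), GTTAATNATTAAC (0.00913%) and TTGCGCAA (0.164%). The repeats and the extended forms that hold AGGTCA overlap the half-site motif. A listed gene was counted if any of its windows matched, whereas the percentages count single windows, so these are unlike measures. A gene with more windows has more chances to match. Only exact letters were searched, with N as any base, so a site that differs from a motif in any other letter was not marked or counted. The lack of a match therefore does not show that a gene lacks such a site. These matches describe letters in fixed windows and were not tested for binding.

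Levels are given as TPM, a relative transcript abundance scaled for transcript length and library size. Depth is unknown because TPM keeps none. Changes are differences of group means on the log2(TPM + 1) scale, with their standard error (SE), from 1 limma fit over all 14 tumours and the 13466 genes that reached 1 TPM in at least 3 tumours. This scale understates the change of low genes. Adjusted p-values are from that fit, two-sided, with the Benjamini-Hochberg method over all 13466 genes and a threshold of 0.05. The filter kept 31 of the 32 bile acid genes. Slc51a, one subunit of the basolateral bile acid exporter, was left out at 0 to 0.06 TPM in every tumour. Slco1a1 reached 1 TPM only in Aoah tumours, Abcc4 in no LucOS vector tumour and Fgf15 in no LucOS Aoah tumour, so the filter kept Slco1a1 wholly through the Aoah tumours and the other 2 partly through the groups in which they were high. A gene kept in this way had to differ between groups, so the Slco1a1 change is a description.

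Between 11478 and 12837 genes reached 1 TPM per tumour. Aoah itself ranged from 283.72 to 685.24 TPM in the Luc Aoah group and from 576.03 to 931.15 TPM in the LucOS Aoah group. It stood at 0.74 to 3.43 TPM in 5 of the 7 vector tumours, but at 18.57 TPM in Luc vector 1 and 54.76 TPM in Luc vector 3. The libraries of 2 further tumours stood apart in composition: Luc Aoah 3 had 1776.94 TPM of the noncoding RNA Rn7sk against 27.67 to 59.2 TPM elsewhere, and LucOS Aoah 3 had 16.6% mitochondrial transcripts against 3.41% to 8.45%. The defining hepatocyte markers were present in all tumours, with a summed level of 3004 to 23275 TPM over 10 genes. In bulk tissue, fewer cells of a type and less RNA per cell cannot be told apart.

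In Luc tumours, the synthesis enzymes Cyp7a1, Cyp8b1, Cyp7b1 and Hsd3b7 and the conjugating enzyme Baat rose with Aoah, and the feedback genes Nr0b2, Fgf15 and Fgfr4 fell. The other 5 synthesis genes and the other 2 activation and conjugation genes did not pass. Of the 31 bile acid genes tested, 14 passed, against a background of 22.2% of all 13466 genes, and 16 had an unadjusted p under 0.05 (background 41.8%). The list was chosen with earlier results of these data known, so counts set beside a background, here and below, are descriptions. The 8 that rose (background 7.93%) were Cyp7a1, Cyp8b1, Cyp7b1, Hsd3b7, Baat, Slco1a1, Slco1b2 and Abcc4. Slco1a1 was kept by the filter through Aoah tumours alone, so its call, here and with tumours left out, is a description. The 6 that fell (background 14.3%) were Abcb1a, Abcg8, Atp8b1, Nr0b2, Fgf15 and Fgfr4. The median change was 0.15 over the 31 genes and −0.24 over all genes tested. Of the 31 changes 16 were positive, against 4840 of all 13466. By role, the median change was 0.51 for 9 synthesis genes, 1.32 for 3 activation and conjugation genes, 0.87 for 4 uptake carriers, −0.69 for 10 export genes and −1.04 for 5 feedback genes. When each tumour was shifted to the same median over all genes, the median of all genes became 0.07 and that of the bile acid genes 0.47. By role, the shifted median was 0.82 for synthesis, 1.64 for activation and conjugation, 1.18 for uptake, −0.37 for export and −0.73 for feedback. The calls then numbered 11 higher and 6 lower, adding Slc27a5, Abcc3 and Nr1h4, against 30.6% of all genes (4120 genes). Amacr, Scp2, Slc27a2 and Abcb11, which did not pass, changed sign under this shift. The share of higher calls over all genes moved from 35.7% to 52.1%. Without Luc vector 1 and Luc vector 3, the vector tumours with Aoah at 18.57 and 54.76 TPM, 4 of the 31 genes passed (Hsd3b7, Baat, Slco1a1 and Slco1b2), all higher, against 2.68% of all genes. Without Luc Aoah 4, 9 passed, against 6.44% of all genes.

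**Figure D1:**
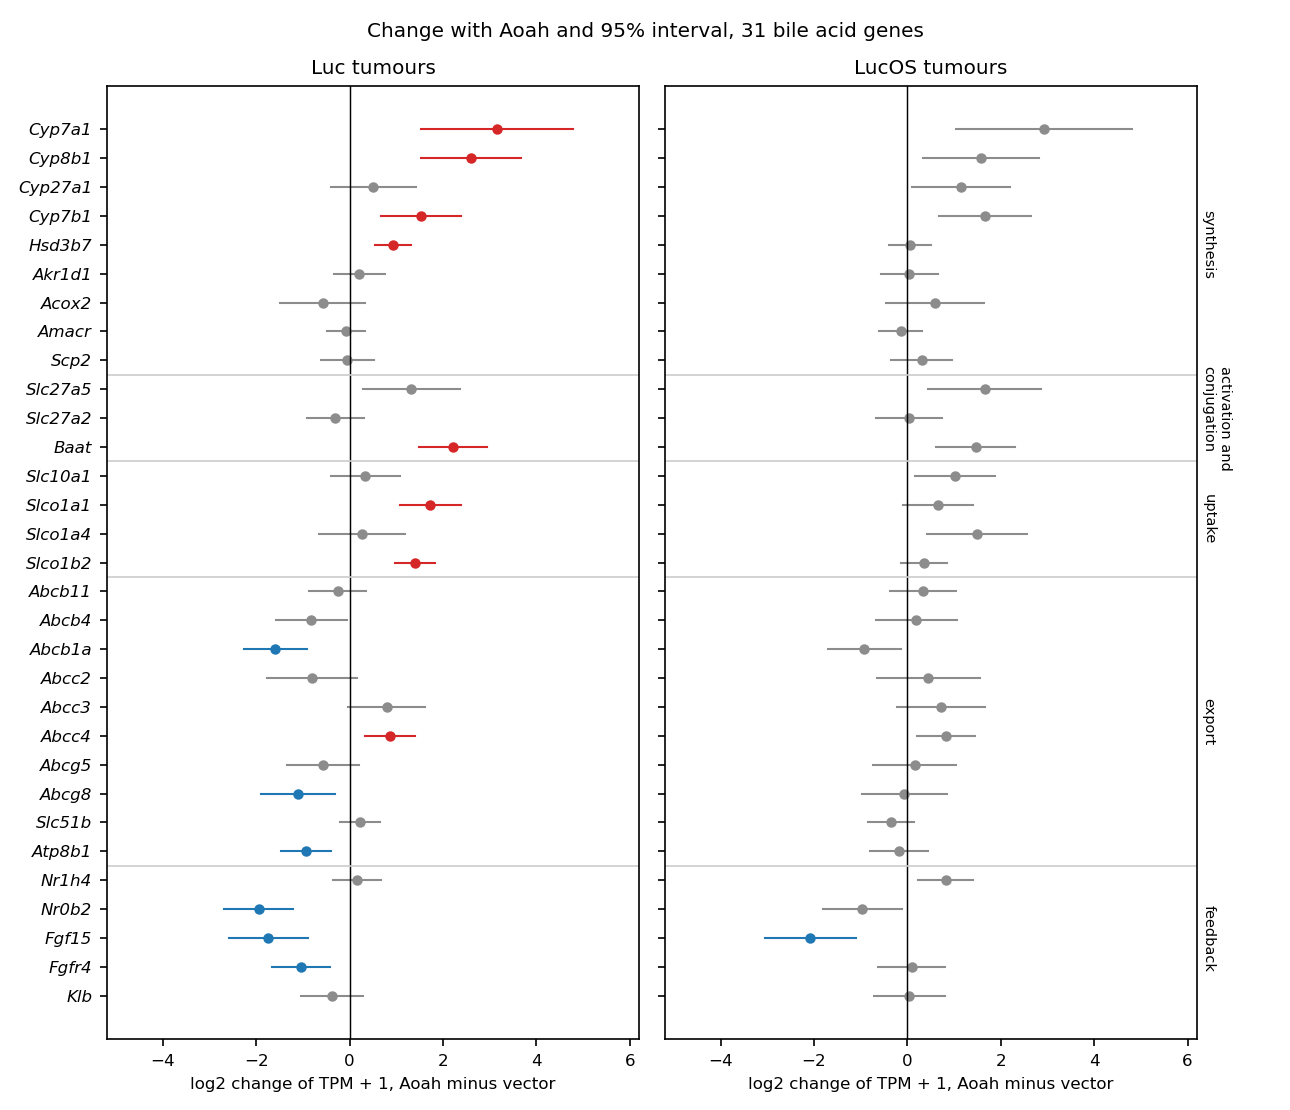
Change with Aoah for 31 bile acid genes in Luc (left) and LucOS (right) tumours. The x axis is the difference of group means of log2(TPM + 1), Aoah minus vector, with its 95% interval from limma; red marks genes that passed as higher, blue as lower and grey those that did not pass, and genes are ordered by role. In Luc tumours 8 genes are red and 6 blue, and in LucOS tumours Fgf15 alone is coloured.

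Cyp7a1, the rate-limiting enzyme, stood at 45.81, 34.93, 44.70 and 41.48 TPM in Luc Aoah tumours 1 to 4 and at 2.76, 0.93, 4.12 and 13.11 TPM in Luc vector tumours 1 to 4. All Aoah tumours lay above all vector tumours, and Luc vector 4 was the highest of its group. The change was 3.15 (SE 0.76, adjusted p = 0.0158), and the group means were 41.7 ± 4.89 and 5.23 ± 5.41 TPM (SD, n = 4 each). The call was lost without Luc vector 1 and 3 (change 3.03, adjusted p = 0.155) and without the Aoah 3 tumours of both models (3.12, adjusted p = 0.0508), and the change was 2.71 to 3.67 over all 16 alternatives. Cyp8b1, the sterol 12-alpha-hydroxylase, stood at 21.85, 25.86, 10.07 and 24.30 TPM with Aoah and at 1.88, 0.94, 2.63 and 5.47 TPM with vector. The groups did not overlap, with Luc Aoah 3 the lowest of the Aoah tumours. Its change was 2.59 (SE 0.50, adjusted p = 0.00428), and it was lost without Luc vector 1 and 3.

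The alternative route differed between its enzymes. Cyp7b1, the oxysterol 7-alpha-hydroxylase, stood at 8.21, 9.88, 6.58 and 12.26 TPM with Aoah and at 2.09, 1.5, 4.06 and 2.66 TPM with vector. The groups did not overlap, and the change was 1.53 (SE 0.40, adjusted p = 0.0206). It was lost without Luc vector 1, without Luc Aoah 4, and without Luc vector 1 and 3 together. Cyp27a1, the mitochondrial sterol 27-hydroxylase that starts this route, ranged from 27.98 to 64.37 TPM with Aoah and from 27.61 to 42.59 TPM with vector. Its groups overlapped, and the change of 0.51 (95% interval −0.39 to 1.41) did not pass (adjusted p = 0.366).

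Hsd3b7, which acts on the sterol nucleus in both routes, stood at 150.08, 119.15, 111.28 and 155.60 TPM with Aoah and at 85.04, 65.94, 74.12 and 55.00 TPM with vector. Every Aoah tumour was above every vector tumour, and the change was 0.93 (SE 0.18, adjusted p = 0.00431). The other synthesis genes did not pass. Akr1d1, the 5-beta-reductase, had a change of 0.21, the peroxisomal oxidase Acox2 one of −0.58, the racemase Amacr −0.07 and the peroxisomal thiolase gene Scp2 −0.05. Their adjusted p-values ran from 0.306 for Acox2 to 0.900 for Scp2.

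Conjugation takes an activating ligase and a transferase. Baat, which joins the activated bile acid to taurine or glycine, stood at 118.12, 105.18, 119.14 and 171.64 TPM with Aoah and at 21.18, 28.76, 23.41 and 34.75 TPM with vector. All Aoah tumours were far above the highest vector tumour, and the change was 2.21 (SE 0.34, adjusted p = 0.000975). Slc27a5, the bile acid CoA ligase of hepatocytes, stood at 116.23, 126.01, 67.06 and 135.21 TPM with Aoah and at 32.46, 47.89, 51.34 and 40.15 TPM with vector. Its groups did not overlap either, but the change of 1.32 (95% interval 0.28 to 2.37) missed the threshold (adjusted p = 0.0621). Slc27a2, a fatty acid ligase that also activates bile acid precursors, had a change of −0.31 and did not pass (adjusted p = 0.420).

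Of 4 uptake carriers, 2 rose. Slco1b2, the main organic anion carrier of mouse hepatocytes, stood at 498.47, 451.04, 458.70 and 551.62 TPM with Aoah and at 163.27, 219.17, 162.74 and 198.27 TPM with vector. The groups were well apart, with a change of 1.40 (SE 0.20, adjusted p = 0.000536). Slco1a1, another organic anion carrier, stood at 2.70, 1.63, 1.93 and 4.01 TPM with Aoah and at 0.08, 0.05, 0.01 and 0.05 TPM with vector. It was thus close to 0 in each vector tumour, and its change was 1.72 (SE 0.31, adjusted p = 0.00229 in limma). The filter kept Slco1a1 through Aoah tumours alone, so this p-value is no independent test and the change is a description. Slc10a1, the sodium-dependent bile acid carrier, ranged from 44.83 to 124.07 TPM with Aoah and from 56.90 to 91.69 TPM with vector, and Slco1a4 at 9.07 to 25.82 and 11.50 to 24.72 TPM. Neither passed, with changes of 0.34 (95% interval −0.40 to 1.08) for Slc10a1 and 0.27 (−0.65 to 1.19) for Slco1a4. Within a tumour, the Slco1b2 level was 4.45 to 10.2 times that of Slc10a1 in Luc Aoah and 1.77 to 3.85 times in Luc vector tumours. The 10.2 was that of Luc Aoah 3, and the other Luc Aoah tumours stood at 4.45 to 5.06. In LucOS this ratio was 2.65 to 4.49 with Aoah and 4.51 to 6.35 with vector. It sets a gene that rose in Luc over one that did not pass, so its separation there is not independent of that call. The ratio was not tested.

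**Figure D2:**
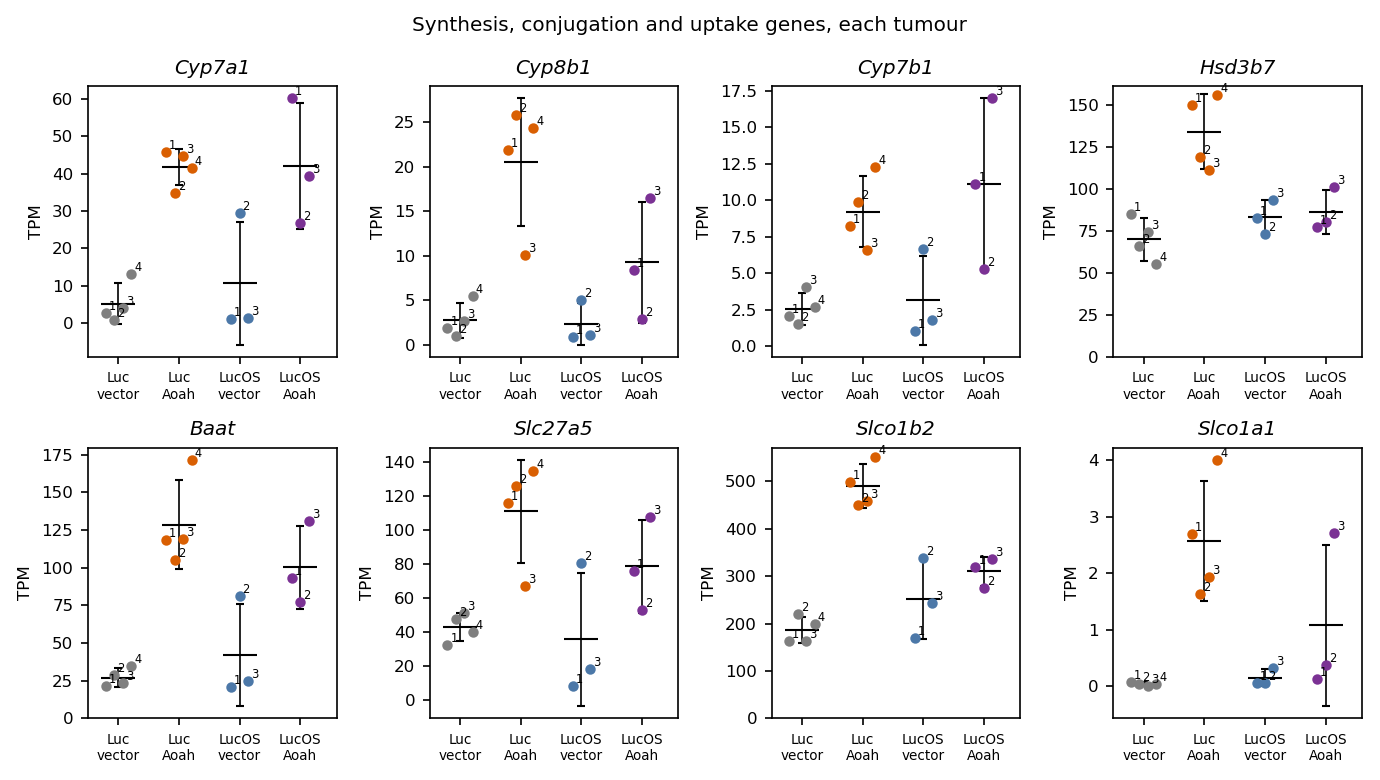
TPM of 8 synthesis, conjugation and uptake genes in every tumour, by group on the x axis. Points are tumours numbered as in the labels and bars are the mean ± SD. None of the 8 genes overlaps between the Luc groups. Except for Hsd3b7 and Slco1a1, LucOS vector 2 (Cyp7a1 29.46 TPM) lies with or near the LucOS Aoah tumours. For Hsd3b7 and Slco1a1 it is the lowest LucOS tumour, at 73.10 and 0.06 TPM.

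Export genes moved in both directions. Abcb11, the bile salt export pump, stood at 71.80, 78.80, 46.12 and 120.01 TPM with Aoah and at 99.20, 64.44, 110.50 and 91.03 TPM with vector. The groups overlapped, and the change of −0.26 (95% interval −0.87 to 0.36) did not pass. Its sign reversed when tumours were shifted to equal medians. Abcb1a, a multidrug pump of the canalicular membrane, stood at 7.23, 9.54, 2.39 and 5.73 TPM with Aoah and at 22.87, 12.29, 23.34 and 20.08 TPM with vector. Its groups did not overlap, with Luc Aoah 3 the lowest, and it fell by 1.59 (SE 0.32, adjusted p = 0.00517). Atp8b1, a canalicular phospholipid flippase, fell by 0.93 (SE 0.25, adjusted p = 0.0232) from 7.59 to 13.14 TPM with vector to 3.13 to 6.77 TPM with Aoah, again with no overlap. Without Luc Aoah 3 the Atp8b1 call was lost, as it was without Luc vector 3, Luc vector 4 or Luc Aoah 4.

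Abcg8 stood at 4.08, 5.78, 1.47 and 4.25 TPM with Aoah and at 4.58, 8.50, 10.47 and 14.56 TPM with vector. It fell by 1.10 (SE 0.37, adjusted p = 0.0464), with overlap at Luc vector 1, and the call held under 6 of 16 other settings and was lost without Luc vector 3, Luc vector 4, Luc Aoah 1, Luc Aoah 3 or Luc Aoah 4. Its partner Abcg5 had a change of −0.57 and did not pass (adjusted p = 0.230). The Abcg8 level was 0.378 to 0.675 of the Abcg5 level in Luc Aoah tumours and 0.753 to 0.912 of it in Luc vector tumours. Both genes flank the 109 bases printed above. In LucOS this ratio was 0.455 to 0.554 with Aoah and 0.534 to 0.693 with vector, and the groups overlapped. The ratio was not tested.

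Abcc4, a basolateral exporter that carries bile acids to blood, stood at 2.18, 4.74, 1.24 and 3.10 TPM with Aoah and at 0.76, 0.87, 0.82 and 1.60 TPM with vector. Luc Aoah 3 fell below Luc vector 4, and the change was 0.86 (SE 0.25, adjusted p = 0.0318). That call held under 8 of 16 other settings and was lost without Luc vector 1, Luc vector 3, Luc Aoah 1 or Luc Aoah 4. Abcc3, another basolateral exporter, ranged from 10.06 to 22.26 TPM with Aoah and from 7.39 to 12.47 TPM with vector and did not pass (change 0.79, adjusted p = 0.131). Abcb4, the phosphatidylcholine translocase, and Abcc2, the canalicular conjugate exporter, had changes of −0.82 and −0.80 and did not pass (adjusted p = 0.0962 and 0.182). Slc51b, the partner of Slc51a, ranged from 130.44 to 144.91 TPM with Aoah and from 88.65 to 134.18 TPM with vector and did not pass. The 2 subunits, with Slc51a at 0 to 0.06 TPM, thus differed in level in all 14 tumours. RefSeq places Slc51b across the Rasl12 gene, and whether reads were assigned by strand is not given.

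Of the 5 feedback genes, Nr0b2, Fgf15 and Fgfr4 fell, and Nr1h4 and Klb did not pass. Nr0b2, the Shp repressor gene, stood at 6.73, 6.95, 2.03 and 6.19 TPM with Aoah and at 30.94, 17.84, 25.96 and 17.34 TPM with vector. No Aoah tumour reached the lowest vector tumour, and the level fell by 1.95 (SE 0.34, adjusted p = 0.00222). Fgf15 stood at 1.73, 6.38, 0.45 and 1.03 TPM with Aoah and at 8.45, 5.58, 10.33 and 9.56 TPM with vector. It overlapped through Luc Aoah 2 and fell by 1.74 (SE 0.40, adjusted p = 0.0105). Both calls were lost without Luc vector 1 and 3, with changes of the same direction.

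Fgfr4, the receptor for Fgf15, stood at 2.5, 3.63, 0.91 and 1.72 TPM with Aoah and at 4.55, 4.46, 6.68 and 5.55 TPM with vector. It fell by 1.04 (SE 0.29, adjusted p = 0.0258) without overlap, and the call was lost without Luc vector 3, Luc vector 4, Luc Aoah 3 or Luc Aoah 4. Klb, the co-receptor, and Nr1h4, the Fxr gene, did not pass. Klb ranged from 4.74 to 16.35 TPM with Aoah and from 8.82 to 16.40 TPM with vector (change −0.37). Nr1h4 stood at 59.06, 59.55, 39.64 and 58.24 TPM with Aoah and at 44.34, 44.94, 46.91 and 56.12 TPM with vector (change 0.15, 95% interval −0.36 to 0.66). Setting the levels against each other within tumours, the Cyp7a1 level was 5.03 to 22.0 times that of Nr0b2 in Luc Aoah tumours. In Luc vector tumours it was 0.0521 to 0.756 times that of Nr0b2. In LucOS this ratio was 4.91 to 16.1 with Aoah and 0.0872 to 2.90 with vector. It sets a gene that rose in Luc over one that fell, so its separation there follows from those calls. The ratio was not tested.

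**Figure D3:**
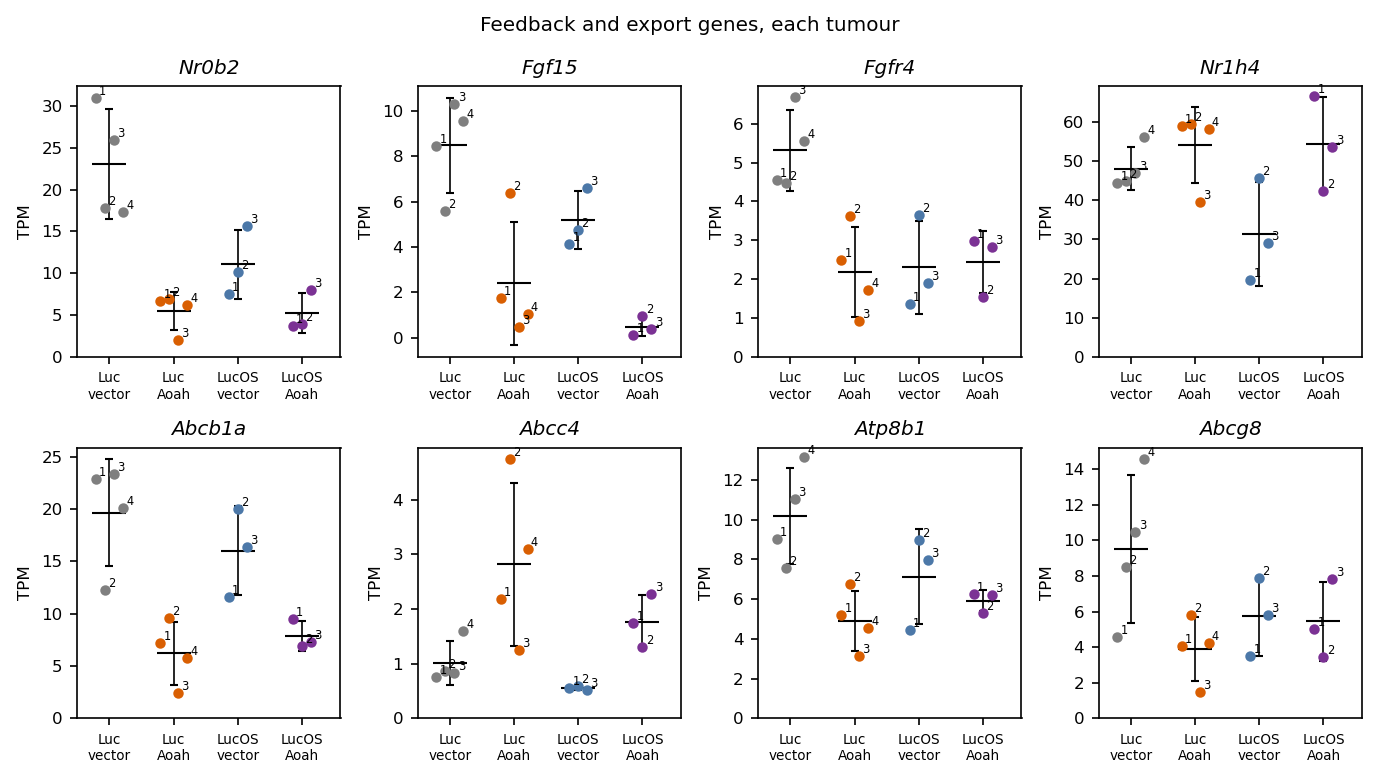
TPM of 8 feedback and export genes in every tumour, by group on the x axis. Points are tumours numbered as in the labels and bars are the mean ± SD. Nr0b2, Fgfr4, Abcb1a and Atp8b1 are lower in every Luc Aoah than in every Luc vector tumour, and Luc Aoah 2 has the highest Fgf15 of its group at 6.38 TPM.

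Without regard to the test, 12 of the 31 genes had Luc groups that did not overlap, against 20.9% of all genes. Of these, 8 were higher with Aoah (background 11.8%) and 4 were lower (9.10%). Luc Aoah 3 was the lowest of its group for 26 of the 31 genes (83.9%, against 67.9% of all genes tested). It was lowest for all 6 genes that fell and for 4 of the 8 that rose; for Cyp7a1, Baat, Slco1a1 and Slco1b2 another Luc Aoah tumour was lower. Without it, Abcb1a, Nr0b2 and Fgf15 still passed as lower, and Abcg8, Atp8b1 and Fgfr4 did not.

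Libraries also differed in markers of other cells in the same direction as some of these genes. Of 10 hepatocyte markers, Alb, Ttr and Tdo2 rose in Luc Aoah tumours (background 7.93% of all genes) and the other 7 did not pass. Their summed level ran from 7022 to 23275 TPM with Aoah and from 5862 to 8294 TPM with vector. Of 9 cholangiocyte markers, 5 were tested, and of these Sox9 and Slc4a2 fell (background 14.3%). The defining keratin genes Krt19 and Krt7 were below the filter, at 0.05 to 1.55 TPM, and Cftr was at 0 to 0.04 TPM. The summed cholangiocyte level ran from 60.8 to 109 TPM with Aoah and from 49.7 to 113 TPM with vector. T cell markers rose in 4 of 5 cases, stellate and fibroblast markers in 3 of 6, endothelial markers in 3 of 7 and Kupffer and macrophage markers in 2 of 7. The background for each of these counts was 7.93%. The part of these markers in the bile acid results was not tested.

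Fgf15 is known as an ileal hormone, so enterocyte markers were read beside it. Cdx2, the intestinal transcription factor, was at 0 TPM in 13 of the 14 tumours and at 0.04 TPM in the other, and Alpi, the intestinal alkaline phosphatase, was at 0 to 0.17 TPM. Vil1 stood at 0.28 to 6.17 TPM and Fabp2 at 134.19 to 333.07 TPM, and neither passed in either model. The ileal bile acid carrier Slc10a2 and the ileal bile acid binding protein Fabp6 rose in Luc Aoah tumours, opposite in direction to Fgf15. Slc10a2 ranged from 3.90 to 5.51 TPM with Aoah and from 0.27 to 0.66 TPM with vector (change 1.91, SE 0.27, adjusted p = 0.000587). Fabp6 ranged from 32.78 to 92.30 TPM with Aoah and from 8.73 to 24.33 TPM with vector (change 1.99, SE 0.63, adjusted p = 0.0417).

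In LucOS tumours, Fgf15 was the only bile acid gene past the threshold, and none of the synthesis, conjugation or uptake genes passed. For Cyp7a1, Cyp8b1, Cyp27a1 and Cyp7b1, LucOS vector 1 and 3 lay below every Aoah tumour, and LucOS vector 2 lay above LucOS Aoah 2. The call was 1 of 31 genes, against a background of 0.965% of all genes, of which 0.750% were higher and 0.215% lower. At an unadjusted p under 0.05 there were 13 of 31 genes, with 12.3% of all genes at that level. Positive changes numbered 24 of 31, against 6386 of all 13466 genes. The median change was 0.33 over the 31 genes and −0.02 over all genes. The median change was 0.59 for synthesis, 1.46 for activation and conjugation, 0.84 for uptake, 0.17 for export and 0.04 for feedback. Groups did not overlap for 3 of 31 genes (background 12.3%): Abcc4 was higher (background 6.22%) and Abcb1a and Fgf15 were lower with Aoah (6.07%).

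Fgf15 stood at 0.11, 0.95 and 0.38 TPM in LucOS Aoah tumours 1 to 3 and at 4.15, 4.76 and 6.61 TPM in LucOS vector tumours 1 to 3. All Aoah tumours were below 1 TPM and all vector tumours above 4 TPM, and the level fell by 2.08 (SE 0.46, adjusted p = 0.0479). The call was lost under 9 of 13 other settings, including without LucOS vector 1, LucOS vector 3, LucOS Aoah 1 or LucOS Aoah 3, with adjusted p from 0.0224 to 0.189 over the 13. The direction was the same in all 13. The authors' deposited table gives Fgf15 a log2 fold change of −3.35 (adjusted p = 8.8e-05) in this comparison.

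Cyp7a1 stood at 60.07, 26.66 and 39.36 TPM with Aoah and at 1.13, 29.46 and 1.36 TPM with vector. LucOS vector 2 was above LucOS Aoah 2, and the other vector tumours were far below every Aoah tumour. The change of 2.93 (95% interval 1.05 to 4.82) did not pass (adjusted p = 0.152). Baat stood at 92.90, 77.40 and 130.97 TPM with Aoah and at 20.80, 81.40 and 24.84 TPM with vector, again with LucOS vector 2 inside the Aoah range (change 1.46, adjusted p = 0.104). Slc27a5 stood at 76.00, 52.80 and 107.55 TPM with Aoah and at 8.03, 80.72 and 18.43 TPM with vector (change 1.66, adjusted p = 0.213).

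The same tumour was high for other genes of synthesis. Cyp7b1 stood at 11.12, 5.31 and 16.99 TPM with Aoah and at 1.04, 6.65 and 1.80 TPM with vector (change 1.66, adjusted p = 0.112). Cyp8b1 stood at 8.44, 2.90 and 16.46 TPM with Aoah and at 0.87, 5.02 and 1.13 TPM with vector (change 1.58, adjusted p = 0.256). Cyp27a1 stood at 56.70, 37.65 and 122.14 TPM with Aoah and at 15.03, 66.77 and 22.38 TPM with vector (change 1.14, adjusted p = 0.357). LucOS vector 2 lay inside the range of the LucOS Aoah tumours for 19 of 31 genes (61.3%, against 44.7% of all genes tested). LucOS vector 1 did so for 5 genes (16.1%, against 41.1% of all genes) and LucOS vector 3 for 11 genes (35.5%, against 47.1%). Without LucOS vector 2, the vector tumour just described as inside the Aoah range, 8 of 31 genes passed, against 2.62% of all genes (353 genes): Cyp7a1, Cyp27a1, Cyp7b1, Slc27a5, Baat, Slco1a4 and Nr1h4 were higher and Fgf15 was lower.

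Hsd3b7, which passed in Luc, stood at 77.21, 80.20 and 101.29 TPM with Aoah and at 82.33, 73.10 and 93.34 TPM with vector in LucOS. Its groups overlapped, with a change of 0.05 (95% interval −0.39 to 0.50). Slco1b2 stood at 318.86, 275.20 and 335.23 TPM with Aoah and at 170.42, 338.48 and 243.46 TPM with vector (change 0.35, 95% interval −0.13 to 0.84). Slco1a1 stood at 0.14, 0.38 and 2.72 TPM with Aoah and at 0.07, 0.06 and 0.33 TPM with vector, and LucOS Aoah 3 alone was above 1 TPM. These 3 genes did not pass in LucOS.

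Of the other uptake carriers, Slc10a1 ranged from 61.27 to 126.43 TPM with Aoah and from 26.83 to 75.07 TPM with vector (change 1.03, adjusted p = 0.293). Slco1a4 ranged from 13.03 to 26.09 TPM with Aoah and from 2.82 to 15.88 TPM with vector (change 1.49, adjusted p = 0.202). Abcb1a stood at 9.48, 6.87 and 7.27 TPM with Aoah and at 11.60, 20.03 and 16.41 TPM with vector, without overlap (change −0.92, adjusted p = 0.310). Abcc4 stood at 1.74, 1.30 and 2.27 TPM with Aoah and at 0.56, 0.59 and 0.51 TPM with vector, also without overlap (change 0.82, adjusted p = 0.236). Nr0b2 stood at 3.74, 3.92 and 8.01 TPM with Aoah and at 7.47, 10.17 and 15.60 TPM with vector, with overlap at LucOS Aoah 3 (change −0.97, adjusted p = 0.324). The remaining export genes, Abcb11, Abcb4, Abcc2, Abcc3, Abcg5, Abcg8, Slc51b and Atp8b1, had changes from −0.35 for Slc51b to 0.72 for Abcc3.

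The summed level of 10 hepatocyte markers was 7486 to 18275 TPM in LucOS Aoah and 3004 to 8371 TPM in LucOS vector tumours, and the highest vector value was that of LucOS vector 2. One of the 10, Ttr, rose. Of 5 T cell markers, Cd3g and Trbc2 rose, and no marker of cholangiocytes, enterocytes, endothelium, macrophages or stellate cells passed. Over all genes, 0.750% passed as higher in LucOS. The part of these markers was not tested.

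**Figure D4:**
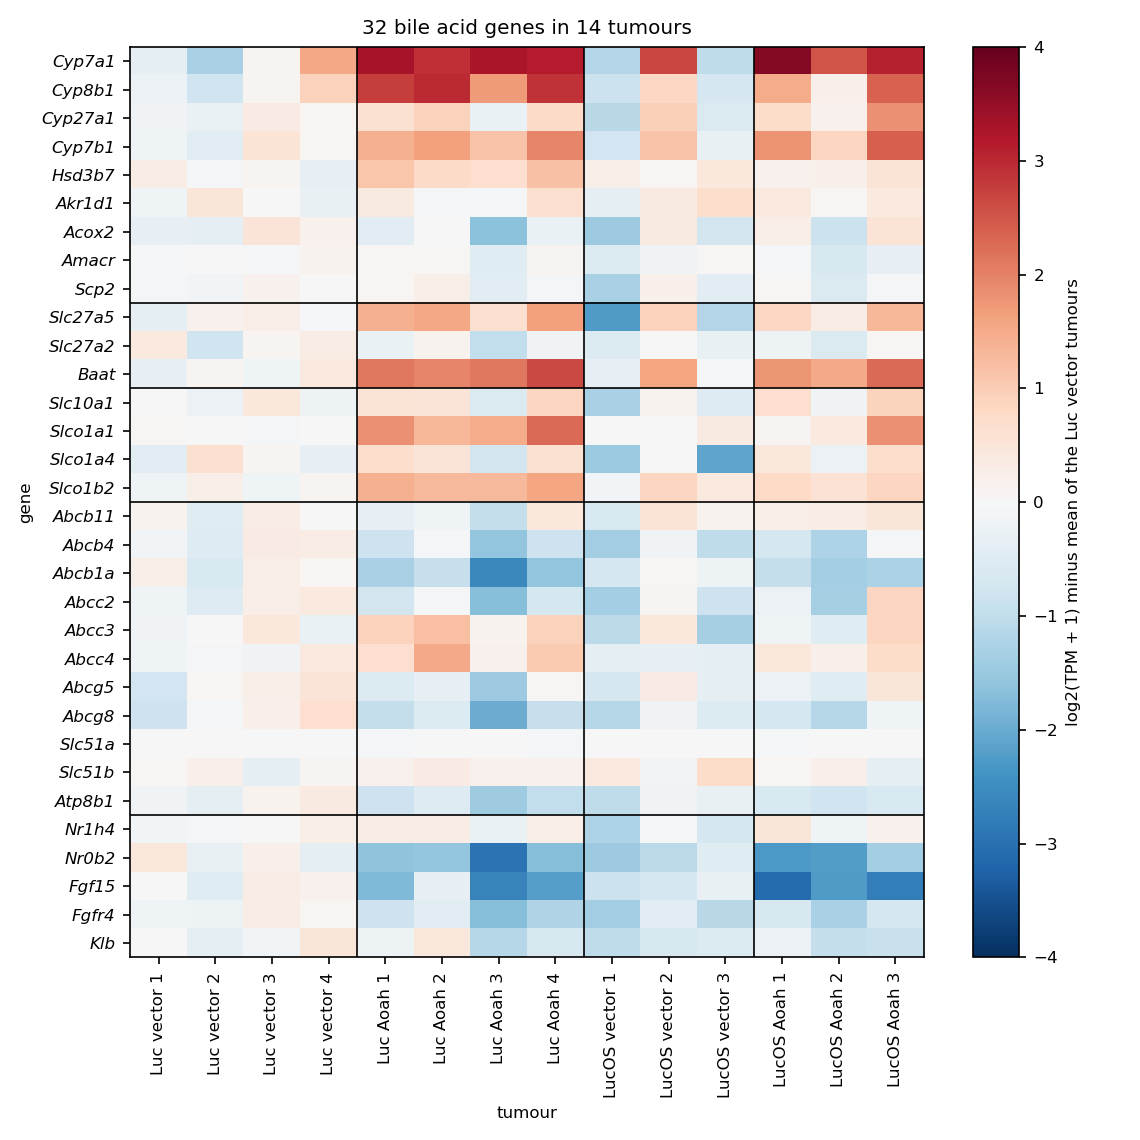
log2(TPM + 1) of 32 bile acid genes (rows, by role) in 14 tumours (columns, by group), as the difference from the mean of the 4 Luc vector tumours. Red is higher and blue lower, on a scale that ends at 4 in each direction. Cyp7a1, Baat and Slco1b2 are red in all 7 Aoah tumours, and also in LucOS vector 2, with Slco1b2 also red in LucOS vector 3. Some Luc vector tumours are also red or blue, because the reference is their mean. For these genes the highest are Cyp7a1 at 1.56 and Baat at 0.38 in Luc vector 4, and Slco1b2 at 0.25 in Luc vector 2. Nr0b2 and Fgf15 are blue in all 7 Aoah tumours, and also in all 3 LucOS vector tumours, where Nr0b2 lies at −1.46, −1.06 and −0.49 and Fgf15 at −0.85, −0.69 and −0.29.

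The authors' deposited tables give DESeq2 comparisons of the same tumours on counts. In Luc, 19 of 32 bile acid genes had a deposited adjusted p under 0.05 (12 higher and 7 lower; background 31.7% of 19102 genes, 15.6% higher and 16.1% lower). They included all 14 genes that passed here, and also Cyp27a1, Slc27a5, Abcb4, Abcc3 and Nr1h4. The authors' deposited table gives log2 fold changes of 3.45 for Cyp7a1, 3.23 for Cyp8b1, 1.61 for Slc27a5, 0.82 for Cyp27a1, 1.11 for Abcc3, 0.44 for Nr1h4 and −0.54 for Abcb4. In LucOS the authors' deposited table called 4 of 31 genes (background 2.77% of 16406 genes, 1.99% higher and 0.780% lower). They were Cyp7b1 (1.87) and Abcc4 (1.60) as higher and Abcb1a (−1.03) and Fgf15 (−3.35) as lower. For Cyp7a1 in LucOS the authors' deposited table gives 2.13 with an adjusted p of 0.464.

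The difference between the Aoah effects in the 2 models was tested as an interaction. None of the 31 genes passed in limma, against 0.00743% of all genes (1 gene), and 4 had an unadjusted p under 0.05, against 10.2% of all genes. The median difference over all genes was 0.23 and became −0.11 with equal medians. The 4 genes were Slco1b2 (difference −1.05, 95% interval −1.69 to −0.40), Slco1a1 (−1.07), Hsd3b7 (−0.88) and Fgfr4 (1.14), each with an adjusted p of 0.443. The first 3 had a smaller change in LucOS than in Luc, and Fgfr4 had a change of 0.09 in LucOS and −1.04 in Luc. Slco1a1 was kept by the filter through Aoah tumours alone, so its difference is a description. For Cyp7a1 the difference was −0.22 (95% interval −2.71 to 2.28), which includes 0 and wide differences of either sign. That a gene passed in Luc and not in LucOS thus does not show a difference between the models.

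The effect of the antigens was compared between LucOS and Luc tumours with the same plasmid; these comparisons share tumours with the Aoah comparisons above. Among vector tumours, none of the 31 bile acid genes passed in limma, and none of the 13466 genes did (0%). The median change over all genes was −0.25 and became 0.06 with tumours shifted to equal medians, when 6 bile acid genes changed sign, none of them named in this comparison. At an unadjusted p under 0.05 there were 6 of the 31, against 14.2% of all genes. Groups did not overlap for 4 genes (background 9.74%, of which 2.12% higher and 7.63% lower in LucOS), all lower in LucOS: Nr0b2, Fgfr4, Klb and Abcc4. Fgfr4 was at 1.37, 3.66 and 1.89 TPM in LucOS vector tumours and 4.46 to 6.68 TPM in Luc vector tumours (change −0.98, adjusted p = 0.344). Nr0b2 was at 7.47 to 15.60 TPM against 17.34 to 30.94 TPM (change −1.01, adjusted p = 0.344), and Klb at 5.24 to 7.65 against 8.82 to 16.40 TPM (change −0.73, adjusted p = 0.344).

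Among Aoah tumours, none of the 31 genes passed in limma, against 0.0817% of all genes (11 genes), and 5 had an unadjusted p under 0.05 (background 7.01%). Hsd3b7 and Slco1b2 did not overlap and were lower in LucOS (background 5.28% lower, 2.20% higher and 7.48% in either direction). Hsd3b7 was at 77.21 to 101.29 TPM in LucOS Aoah and 111.28 to 155.60 TPM in Luc Aoah tumours (change −0.63, adjusted p = 0.436). Slco1b2 was at 275.20 to 335.23 TPM against 451.04 to 551.62 TPM (change −0.66, adjusted p = 0.485). Slco1a1 passed as lower in LucOS without LucOS Aoah 3, the highest of its group at 2.72 TPM (background 0.0743%, 10 genes). Among the remaining tumours the gene reached 1 TPM only in Luc Aoah tumours, which alone met the filter, so this call is a description.

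Of 43 further genes of bile acid side routes, peroxisomal steps, sulfation, regulation and transport, 38 were tested. This list too was chosen with earlier results of these data known, so its shares are descriptions. In Luc tumours 8 rose with Aoah (21.1%, against 7.93% of all genes) and 6 fell (15.8%, against 14.3%). The 4 with the smallest p that rose were Akr1c6, a hydroxysteroid dehydrogenase, Sult2a8, a bile acid sulfotransferase, Hsd11b1, the 11-beta-hydroxysteroid dehydrogenase, and Slc10a2, given above. Akr1c6 stood at 1412.85, 850.25, 1517.38 and 1858.22 TPM with Aoah and at 124.80, 140.21, 139.30 and 146.39 TPM with vector (change 3.29, SE 0.25, adjusted p = 1.1e-05). Sult2a8 stood at 178.95, 90.79, 191.84 and 258.58 TPM with Aoah and at 7.05, 5.75, 3.00 and 3.68 TPM with vector (change 4.91, SE 0.41, adjusted p = 1.2e-05). Both were apart between groups in every tumour, and so was Hsd11b1 at 124.53 to 327.95 against 20.37 to 33.18 TPM (change 2.76, adjusted p = 0.000215).

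The 4 with the smallest p that fell in Luc were Cyp39a1, Rxra, Abcb1b and Ppargc1a. Cyp39a1, the 24-hydroxycholesterol 7-alpha-hydroxylase, ranged from 19.86 to 45.63 TPM with Aoah and from 73.69 to 93.33 TPM with vector and fell by 1.43 (adjusted p = 0.00215). Rxra, the partner receptor of Fxr on DNA, stood at 9.45, 22.42, 4.71 and 8.33 TPM with Aoah and at 33.16, 20.60, 66.11 and 47.26 TPM with vector and fell by 1.88 (adjusted p = 0.0151), with overlap at Luc Aoah 2. Abcb1b, the neighbour and paralog of Abcb1a, fell by 0.81 (adjusted p = 0.0324), and Ppargc1a, a transcriptional coactivator, by 0.84 (adjusted p = 0.0368).

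In LucOS tumours 3 of the 38 rose (7.89%, against 0.750% of all genes) and none fell. Akr1c6 stood at 1198.02, 838.00 and 1113.92 TPM with Aoah and at 151.52, 216.39 and 103.47 TPM with vector (change 2.78, SE 0.29, adjusted p = 0.00108). For this gene LucOS vector 2 lay far below the Aoah tumours. Sult2a8 stood at 56.62, 28.81 and 94.67 TPM against 8.83, 3.04 and 8.56 TPM (change 2.92, adjusted p = 0.0148), and LucOS vector 2 was the lowest of the 6 tumours. Hsd11b1 stood at 88.69, 80.22 and 196.51 TPM against 22.12, 38.51 and 17.34 TPM (change 2.14, adjusted p = 0.0229). None of the 38 passed in the interaction or in either antigen comparison.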

How the data were processed

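Per the labels' protocols, polyA RNA of 14 bulk tumours was made into cDNA with random primers; both directional and non-directional libraries are described. Per the submitters' processing notes, RSEM and DESeq2 were used with build mm39; aligner and versions are not given in the sources used here. Log2(TPM + 1) values for 29923 gene symbols were deposited by the authors, and TPM was recovered from them. TPM keeps no depth, so no counting interval could be given. The authors' comparison tables hold log2 fold changes, p-values and a Wald score, and the score was not used. The deposited tables do not state the numerator, which was read from the sign of Aoah. Their Ensembl identifiers were named with GENCODE M21 (95.5% of 28026 in Luc, 95.6% of 26939 in LucOS).

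Limma 3.58.1 in R 4.3.3, with variance trend and robust estimation, fitted 1 mean per group to log2(TPM + 1) for genes at 1 TPM or more in at least 3 tumours, and it was tested on simulated data. The 5 comparisons were Aoah against vector in each model, their difference, and LucOS against Luc among vector and among Aoah tumours. Alternatives changed the pseudocount, filter, scaling, tumours fitted, variance model, a replicate block and the tumours left out. The members and lists were chosen with earlier results of these data known. Named genes were all listed bile acid genes, those past the threshold with their values, and up to 4 of the further genes per direction by p. The receptor repertoire table was not used.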

Additional observations from a re-analysis of the deposited data

Results flagged for a closer look

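In the groups of 4, the highest and the lowest tumour was compared with the rest for each of 32 genes, which gave 64 groups, and 5 held a tumour far from the others by Dixon's criterion. Chance alone flags about 1 in 20 groups. In 3 of the 5 the tumour was Luc Aoah 3, the library with high Rn7sk. Amacr stood at 55.35 TPM there where the remaining tumours of its group held 80.62 to 84.23 TPM. Nr1h4 stood at 39.64 TPM against 58.24 to 59.55 TPM. Nr0b2 stood at 2.03 TPM against 6.19 to 6.95 TPM, the lowest of a group that was already low. Abcc4 stood at 1.6 TPM in Luc vector 4 where the remaining Luc vector tumours held 0.76 to 0.87 TPM. Slc51b stood at 144.91 TPM in Luc Aoah 2 against 130.44 to 131.11 TPM, a gap that is large only beside the narrow range of the others.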

How the results depend on the processing

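In Luc, Hsd3b7, Baat, Slco1a1 and Slco1b2 passed under all 16 alternatives, Slco1a1 being kept by the filter through Aoah tumours alone. Cyp8b1, Abcb1a, Nr0b2 and Fgf15 passed under 15, Cyp7a1 under 14, Cyp7b1 under 11, Abcc4, Atp8b1 and Fgfr4 under 8 and Abcg8 under 6. No call changed direction. The 14 bile acid calls became 9 without the filter, 4 without Luc vector 1 and 3, and 9 to 15 with 1 tumour left out. The 2988 calls over all genes became 1288 without the filter, 361 without Luc vector 1 and 3, 1394 without both Aoah 3 tumours and 867 (without Luc Aoah 4) to 5269 (without Luc Aoah 2) with 1 tumour left out.

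In LucOS, the 1 bile acid call became 0 without the filter, with only the groups compared, with plain variances and without both Aoah 3 tumours, 2 when scaled to equal medians, and 0 to 8 with 1 tumour left out. The 130 calls over all genes became 15 without the filter, 218 scaled, 6 with only the groups compared, 15 without both Aoah 3 tumours, and 13 (without LucOS Aoah 1) to 353 (without LucOS vector 2) with 1 left out. For the interaction, the 1 call over all genes became 0 with a pseudocount of 0.1, scaled, without Luc vector 1 and 3 or without both Aoah 3 tumours, 2 without the filter, and 0 to 2 with 1 left out. Among vector tumours the antigen comparison gave 4 calls over all genes without the filter, 2 with only the groups compared and 0 to 1 with 1 left out. Among Aoah tumours the 11 calls over all genes became 4 with a pseudocount of 0.1, 6 without the filter, 2 with only the groups compared, 5 without both Aoah 3 tumours and 1 to 10 with 1 left out; the bile acid calls were 0 to 1 with 1 left out. The cause of these changes was not tested.

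Same-numbered tumours of the Aoah and vector groups did not deviate together (correlations of −0.55 to 0.00133 in Luc and −0.55 to 0.0956 in LucOS). With so few tumours per group, these correlations cannot show whether a number marks a shared animal, litter or day. The labels do not say what the numbers mark, so the main fit left them out. With a replicate block, the bile acid calls became 9 in Luc and 0 in LucOS. Over all genes, the block gave 1168 calls in Luc, 34 in LucOS, 0 for the interaction and 0 for the antigen comparison among Aoah tumours. Depth is unknown, so what it limits could not be stated.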
